A study of Homo sapiens with 6 samples.

Results

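The genes described here are 10 members of the BCL2 family: the survival genes MCL1, BCL2L1, BCL2L2, BCL2A1 and BCL2, the pore-forming effector BAK1, and the BH3-only genes PMAIP1, BCL2L11, BMF and BIK. They were taken by symbol from a table of 17468 genes in which each of the 10 has 1 row. All 10 averaged at least 1 FPKM over the 6 libraries and were among the 11129 genes tested. FPKM is the number of fragments per kilobase of transcript, scaled to library size.

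RNA was sequenced from Colo800 and A375, both human melanoma cell lines, after infection with a virus carrying 1 of 3 short hairpin RNAs. The 6 libraries were ETV1-sh1, ETV1-sh2 and scrambled in Colo800, and the same 3 in A375, with ETV1-sh1 and ETV1-sh2 directed against ETV1, an ETS-family transcription factor. The design text gives duplicate infections and RNA taken 4 days later, but the table has 1 column per line and hairpin, so nothing replicates a hairpin within a line. The treatment label names DMSO for ETV1-sh1, 5 nM trametinib (a MEK inhibitor) for ETV1-sh2 and 1 uM vemurafinib (vemurafenib, a BRAF inhibitor) for scrambled, and a protocol label has siRNA transfection (48 hours) followed by a drug (8 hours), whereas no drug is named in the design text. If the drugs were given, drug and hairpin cannot be told apart in any comparison with a hairpin below.

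Proteins of this family decide whether the outer mitochondrial membrane is opened. Survival members hold the effectors BAX and BAK1 in check, and BH3-only members bind survival members through a short BH3 helix, some of them also activating the effectors directly. In melanoma cells, MAPK signalling is known to lower BCL2L11 and BMF activity, and the melanocyte transcription factor MITF is known to act on BCL2 and BCL2A1.

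The stretches that follow show the shared BH3 core as it is encoded, the part through which death and survival members meet. Each is 24 coding bases on the sense strand of GENCODE release 29 (GRCh38), and capitals mark 18 bases that encode a leucine, 3 further residues, a glycine or alanine, and an aspartate. The pattern was found in 8 of the 10 members, and the coordinates are those of the capitals.
BCL2: accCTCCGCCAGGCCGGCGACgac
BCL2L1: gcgCTGAGGGAGGCAGGCGACgag
MCL1: accTTACGACGGGTTGGGGATggc
BAK1: cagCTCGCCATCATCGGGGACgac
BCL2L11: gagTTGCGGCGTATTGGAGACgag
PMAIP1: caaCTCAGGAGATTTGGAGACaaa
BMF: aagCTTCAGTGCATTGCAGACcag
BIK: cggCTGGCCTGCATCGGGGACgag
On GRCh38 the PMAIP1 stretch lies in exon 2 at chr18:59902673-59902690 (plus strand) and the BMF stretch in exon 4 at chr15:40104207-40104224 (minus strand). That of BCL2L11 lies in exon 4 at chr2:111150103-111150120 (plus strand), that of BIK in exon 3 at chr22:43127716-43127733 (plus strand) and that of BAK1 in exon 4 at chr6:33575399-33575416 (minus strand). Among survival genes, MCL1 carries it in exon 1 at chr1:150578877-150578894, BCL2L1 in exon 2 at chr20:31721934-31721951 and BCL2 in exon 2 at chr18:63318361-63318378, all on the minus strand. The core of BMF is the only one of the 8 shown with an alanine codon (GCA) in place of glycine.

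ETV1 itself had 54.6 FPKM with ETV1-sh1 and 9.80 FPKM with ETV1-sh2 in Colo800, against 180.3 FPKM with the scrambled hairpin. In A375 it had 34.6 FPKM with ETV1-sh1 and 3.46 FPKM with ETV1-sh2, against 82.8 FPKM with the scrambled hairpin. ETV1-sh1 thus left 30.3% and 41.8% of the scrambled level in Colo800 and A375, and ETV1-sh2 left 5.43% and 4.18%. Of 7 melanocyte-lineage markers, SOX10 ranged from 353 to 712 FPKM over the 6 libraries, while TYR and DCT were at least 14.8 and 70.8 FPKM in the Colo800 libraries and at most 0.0758 and 0.0657 FPKM in the A375 libraries. MLANA and TYRP1 were low in both lines, at most 1.85 and 1.70 FPKM in Colo800 and 0.481 and 0.604 FPKM in A375. In A375 MITF, SOX10 and S100B were thus present, while TYR, DCT, MLANA and TYRP1 were each under 1 FPKM. Summed markers were at most 6.84 FPKM in Colo800 and 21.5 FPKM in A375 for keratinocytes (4 markers), 2.33 and 10.4 FPKM for endothelium (3 markers), and 2.33 and 12.5 FPKM for epithelium (4 markers). Libraries had 10418 to 11013 genes at 1 FPKM or more. FPKM keeps no absolute depth, and among low genes the commonest ratio to the A375 scrambled library, 0.769 to 2.10, was shared by only 6.91% to 9.51% of them. Values are averages over a culture, so fewer cells expressing a gene and less RNA per cell cannot be told apart.

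MCL1 was the most abundant survival gene in all 6 libraries and moved least. MCL1, a short-lived protein that binds BAK1 and BCL2L11, had 247 FPKM with ETV1-sh1 and 183 FPKM with ETV1-sh2 in Colo800, against 243 FPKM with the scrambled hairpin. In A375 it had 230.0 and 221 FPKM with ETV1-sh1 and ETV1-sh2, against 242 FPKM with the scrambled hairpin. The 6 values span 0.43 on the log2(FPKM + 1) scale, the narrowest range of the 10 genes. MCL1 made up 66.7% to 79.6% of the summed FPKM of the 5 survival genes.

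BCL2L1, which encodes BCL-XL, was the second survival gene in every library. It had 51.6 FPKM with ETV1-sh1 and 52.3 FPKM with ETV1-sh2 in Colo800, against 53.2 FPKM with the scrambled hairpin. In A375 it had 92.9 FPKM with ETV1-sh1 and 39.1 FPKM with ETV1-sh2, against 75.3 FPKM with the scrambled hairpin. The Colo800 libraries were nearly level, whereas the A375 libraries spread around them on both sides. BCL2L2, which encodes BCL-w, had 17.3 and 20.3 FPKM with ETV1-sh1 and ETV1-sh2 in Colo800, against 16.1 FPKM with the scrambled hairpin. In A375 it had 17.6 and 15.8 FPKM with ETV1-sh1 and ETV1-sh2, against 13.6 FPKM with the scrambled hairpin. Its ETV1 hairpin libraries all lay above the scrambled library of the same line, by less than 2-fold. BCL2L2 overlaps a read-through gene with PABPN1, and how shared reads were assigned to either gene is not stated in the files or labels.

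BCL2A1, which encodes the survival protein BFL1, separated the lines. It had 49.1 FPKM with ETV1-sh1 and 8.35 FPKM with ETV1-sh2 in Colo800, against 47.0 FPKM with the scrambled hairpin. In A375 it had 3.24 FPKM with ETV1-sh1 and 1.13 FPKM with ETV1-sh2, against 0.624 FPKM with the scrambled hairpin. The lowest Colo800 library was above the highest A375 library. The Colo800 library with ETV1-sh2 was at 17.8% of its scrambled library, while both A375 libraries with ETV1 hairpins were above theirs, all of them low. BCL2 was the lowest survival gene everywhere, with 1.48 FPKM with ETV1-sh1 and 1.10 FPKM with ETV1-sh2 in Colo800, against 2.43 FPKM with the scrambled hairpin. In A375 BCL2 had 0.846 and 0.414 FPKM with ETV1-sh1 and ETV1-sh2, against 0.481 FPKM with the scrambled hairpin. All 3 Colo800 values lay above all 3 A375 values.

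The effector BAK1, which forms the pore when released, had 28.5 FPKM with ETV1-sh1 and 25.7 FPKM with ETV1-sh2 in Colo800, against 21.7 FPKM with the scrambled hairpin. In A375 BAK1 had 24.8 FPKM with ETV1-sh1 and 34.1 FPKM with ETV1-sh2, against 18.1 FPKM with the scrambled hairpin. The 4 libraries with ETV1 hairpins were all above the 2 scrambled ones.

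**Figure D1:**
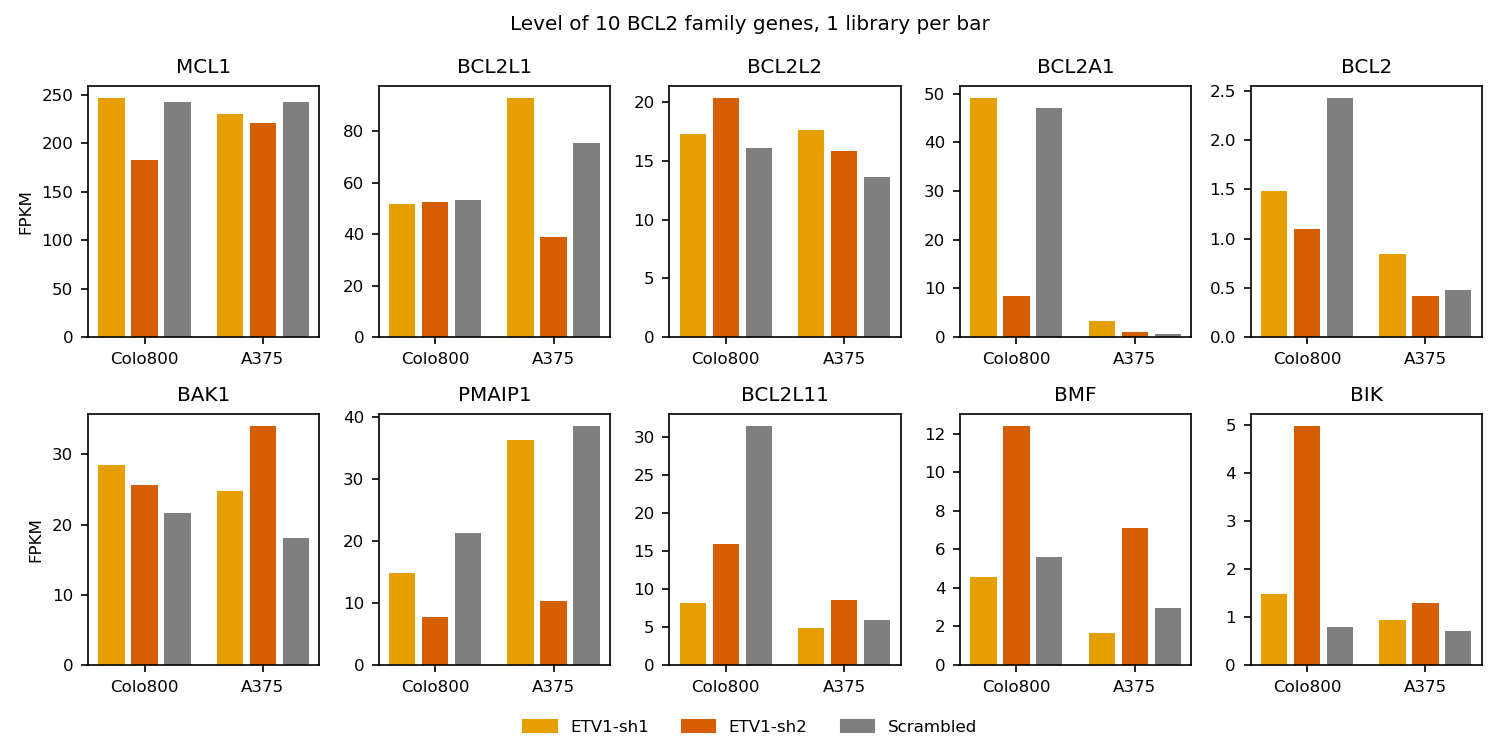
FPKM of each gene (vertical axis, from 0, its own scale per gene) in each of the 6 libraries, 1 bar per library, by cell line and hairpin. No error bars are drawn because each line and hairpin has 1 library. BCL2A1 reached 49.1 FPKM in Colo800 and at most 3.24 FPKM in A375, and PMAIP1 was lowest with ETV1-sh2 in both lines.

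PMAIP1, which encodes NOXA, a BH3-only protein that binds MCL1 and BFL1, was low with ETV1-sh2 in both lines. It had 14.9 FPKM with ETV1-sh1 and 7.72 FPKM with ETV1-sh2 in Colo800, against 21.2 FPKM with the scrambled hairpin. In A375 PMAIP1 had 36.2 FPKM with ETV1-sh1 and 10.3 FPKM with ETV1-sh2, against 38.5 FPKM with the scrambled hairpin. Both ETV1-sh2 libraries lay below both scrambled libraries, at 36.4% of the scrambled level in Colo800 and 26.8% in A375.

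BMF, a BH3-only protein tied to the cytoskeleton and to loss of attachment, went the other way. BMF had 4.57 FPKM with ETV1-sh1 and 12.4 FPKM with ETV1-sh2 in Colo800, against 5.61 FPKM with the scrambled hairpin. In A375 BMF had 1.65 FPKM with ETV1-sh1 and 7.13 FPKM with ETV1-sh2, against 2.95 FPKM with the scrambled hairpin. Both ETV1-sh2 libraries were above both scrambled libraries, and both ETV1-sh1 libraries were below the scrambled library of their line. The ratio of PMAIP1 to BMF in FPKM was 0.621 with ETV1-sh2 in Colo800, against 3.78 with the scrambled hairpin, and 1.45 with ETV1-sh2 in A375, against 13.1 with the scrambled hairpin. With ETV1-sh1 this ratio was 3.25 in Colo800 and 22.0 in A375.

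BCL2L11, which encodes BIM, a BH3-only protein that binds all survival members and can activate the effectors, varied mainly in Colo800. BCL2L11 had 8.21 FPKM with ETV1-sh1 and 16.0 FPKM with ETV1-sh2 in Colo800, against 31.5 FPKM with the scrambled hairpin. In A375 it had 4.88 FPKM with ETV1-sh1 and 8.54 FPKM with ETV1-sh2, against 5.93 FPKM with the scrambled hairpin. Both ETV1-sh1 libraries were the lowest of their line, and the ETV1-sh2 libraries lay on opposite sides of their scrambled libraries. BIK, a BH3-only protein of the endoplasmic reticulum membrane, had 1.49 FPKM with ETV1-sh1 and 4.98 FPKM with ETV1-sh2 in Colo800, against 0.796 FPKM with the scrambled hairpin. In A375 BIK had 0.940 FPKM with ETV1-sh1 and 1.30 FPKM with ETV1-sh2, against 0.706 FPKM with the scrambled hairpin. BIK was thus under 2 FPKM in 5 of the 6 libraries.

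Within the 4 BH3-only genes, PMAIP1 held 18.8% of the summed FPKM with ETV1-sh2 in Colo800, against 35.9% with the scrambled hairpin, and 37.8% with ETV1-sh2 in A375, against 80.1% with the scrambled hairpin. BMF held 30.2% with ETV1-sh2 in Colo800, against 9.49% with the scrambled hairpin, and 26.1% with ETV1-sh2 in A375, against 6.13% with the scrambled hairpin. The order of the 4 in Colo800 with ETV1-sh2 was BCL2L11, BMF, PMAIP1, BIK. With the scrambled hairpin in Colo800 it was BCL2L11, PMAIP1, BMF, BIK, so BCL2L11 led there too. In Colo800 with ETV1-sh1 and in the 3 A375 libraries it was PMAIP1, BCL2L11, BMF, BIK. The sum of the 4 was 29.1 to 59.1 FPKM in Colo800 and 27.3 to 48.1 FPKM in A375.

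**Figure D2:**
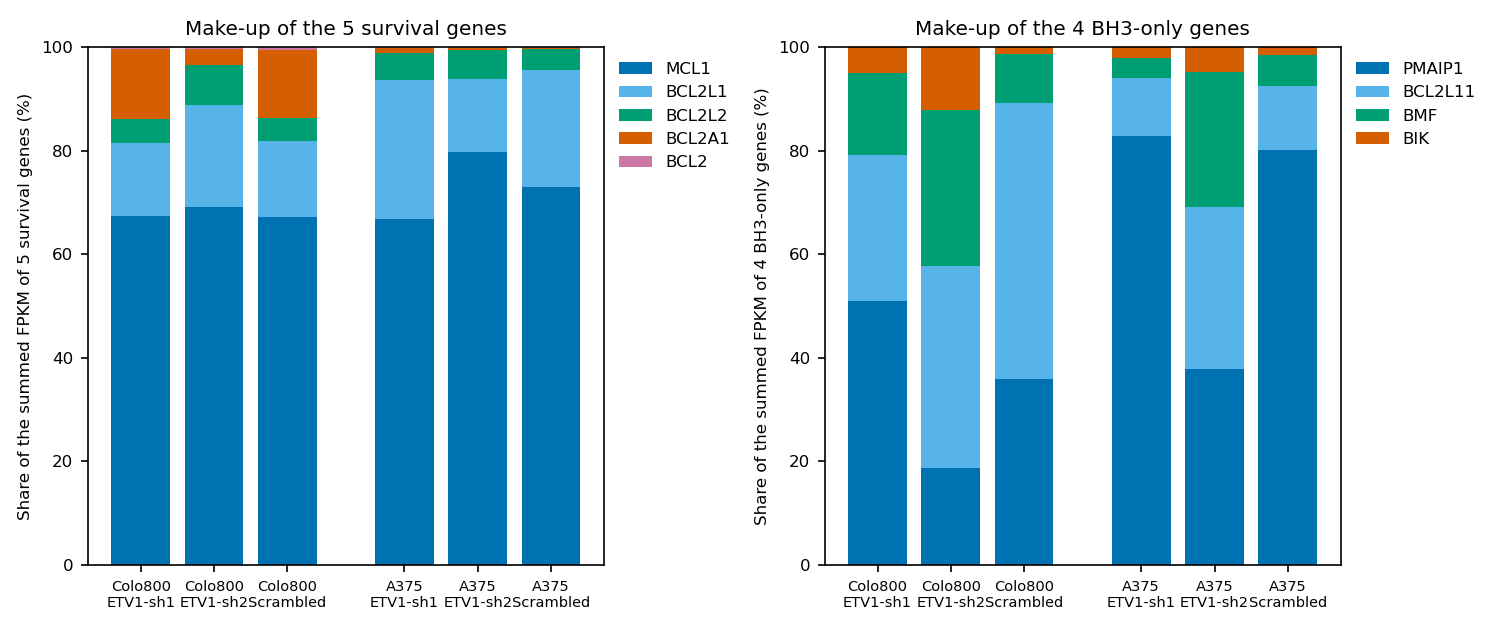
Share of the summed FPKM (percent, 0 to 100) held by each of the 5 survival genes (left) and each of the 4 BH3-only genes (right), 1 bar per library. MCL1 held 66.7% to 79.6% of the survival sum, BCL2A1 reached 13.4% in Colo800 with ETV1-sh1, and the PMAIP1 share was smallest with ETV1-sh2 in each line.

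Each hairpin was compared with the scrambled one over both lines, with limma on log2(FPKM + 1) and the line as a block, p-values adjusted by Benjamini-Hochberg over the 11129 genes. With ETV1-sh2, PMAIP1 fell by 1.58 (log2, SE 0.24, adjusted p = 0.0150) and BMF rose by 1.03 (SE 0.21, adjusted p = 0.0263), each in both lines. Thus 1 of the 10 genes was higher and 1 lower, against 7.73% and 9.00% of all genes tested, and 16.7% in either direction, so the counts are close to the background. BIK (1.08, SE 0.36, adjusted p = 0.0850) and BAK1 (0.55, SE 0.21, adjusted p = 0.122) were above the scrambled libraries in both lines without passing. For BCL2A1 the fitted difference was -0.98 (SE 0.58, adjusted p = 0.268), with the lines on opposite sides, and for BCL2L1 -0.48 (SE 0.30, adjusted p = 0.294). MCL1 had -0.27, BCL2 -0.39, BCL2L2 0.26 and BCL2L11 -0.24, none passing. Over the 10 genes the median difference was -0.25, against 0.05 over all genes.

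The PMAIP1 call was lost without the A375 scrambled library (difference -1.56) or the Colo800 scrambled library (-1.59). Each of these fits leaves 1 scrambled library, and most calls over all genes were lost there too. The BMF call was lost without A375 ETV1-sh1 (adjusted p = 0.0508) or Colo800 ETV1-sh1 (0.0531). In those fits 883 and 861 of all 11129 genes passed, against 1862 in the full fit. It was also lost without A375 ETV1-sh2 (difference 0.94), A375 scrambled (1.11) or Colo800 scrambled (0.95), each leaving 1 library in a compared group. Both genes kept their direction each time. Both calls were also lost without a filter on low values (adjusted p = 0.0687 for PMAIP1, 0.0929 for BMF) and without the line block (0.618 and 0.784). In these fits 0 of all 16132 genes passed without the filter and 0 of all 11129 without the line block, so the loss was not particular to PMAIP1 and BMF. With the ETV1-sh1 libraries kept out of the fit, BMF no longer passed (adjusted p = 0.0506), and 890 of all 11129 genes passed. The summed level of 5 fibroblast markers was 29.7 FPKM with ETV1-sh2 in Colo800, against 9.74 FPKM with the scrambled hairpin, and 34.6 FPKM with ETV1-sh2 in A375, against 13.1 FPKM with the scrambled hairpin. COL1A1, LUM, DCN and PDGFRB were higher with ETV1-sh2 than with the scrambled hairpin in both lines. COL1A1 had 12.1 FPKM with ETV1-sh2 in Colo800, against 2.44 FPKM with the scrambled hairpin, and 9.61 FPKM with ETV1-sh2 in A375, against 1.97 FPKM with the scrambled hairpin. COL1A2 had 1.32 FPKM with ETV1-sh2 in Colo800, against 1.78 FPKM with the scrambled hairpin, and in A375 it was near 0, at 0.0130 FPKM with ETV1-sh2, against 0.00967 FPKM with the scrambled hairpin. Their part in the PMAIP1 and BMF differences was not tested.

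With ETV1-sh1, 0 of the 10 genes passed in either direction with limma, against 0.773% higher and 1.51% lower among all genes (2.28% in all). An unadjusted p under 0.05 was found for 1 of the 10, BCL2L11, and for 2095 of the 11129 genes. BCL2L11 had the difference farthest from 0, -1.03 (SE 0.39, adjusted p = 0.227), with both lines lower. BCL2A1 had 0.72 (SE 0.58), BMF -0.41 (SE 0.21), BAK1 0.40 (SE 0.21) and PMAIP1 -0.29 (SE 0.24). ETV1-sh2 set directly against ETV1-sh1 gave -1.29 for PMAIP1 (SE 0.24, adjusted p = 0.0222) and 1.44 for BMF (SE 0.21, adjusted p = 0.0124), 1 of the 10 genes higher and 1 lower, against 6.82% higher and 6.91% lower among all genes, 13.7% together. Both calls were lost without the A375 ETV1-sh1 library or the Colo800 ETV1-sh1 library. These fits leave 1 ETV1-sh1 library, so the loss cannot be read as particular to PMAIP1 and BMF. Both calls were also lost without the filter (adjusted p = 0.0895 for PMAIP1, 0.0700 for BMF) and without the line block (0.731 and 0.694). BCL2A1 (-1.71, SE 0.58, adjusted p = 0.0982) and BCL2L11 (0.79, SE 0.39, adjusted p = 0.206) did not pass. All 3 comparisons share libraries.

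With both ETV1 hairpins pooled, 0 of the 10 genes passed with limma, 0 of them had an unadjusted p under 0.05, and 0% of all genes passed (1204 had an unadjusted p under 0.05). The difference of the pooled hairpin effect between Colo800 and A375 likewise gave 0 of 10 genes passing, 0 of them with an unadjusted p under 0.05, and 0% of all genes (66 with an unadjusted p under 0.05). Both fits count the gap between ETV1-sh1 and ETV1-sh2 as spread. The hairpin target ETV1 itself did not pass the pooled fit (-2.81, adjusted p = 0.414 with limma), so a count of 0 there is not evidence of no change.

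**Figure D3:**
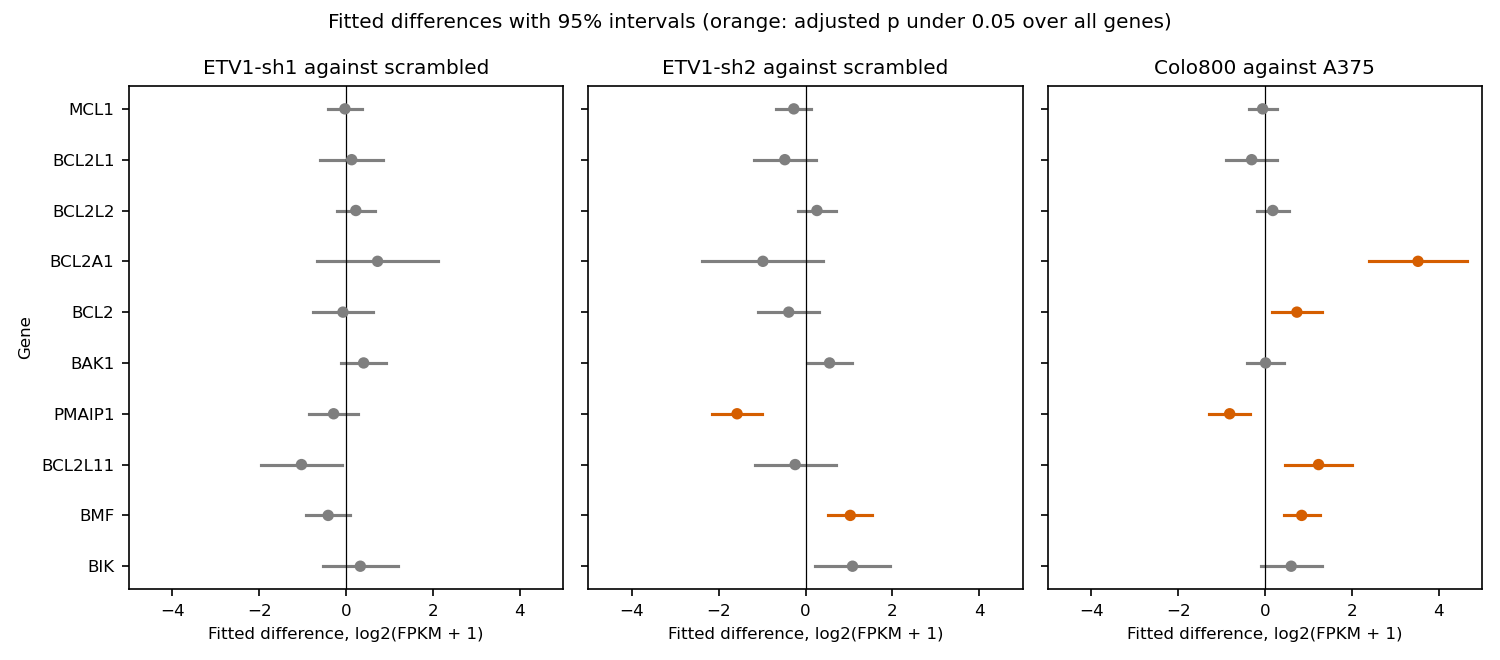
Fitted difference in log2(FPKM + 1) of each gene, with 95% intervals, for ETV1-sh1 against scrambled, ETV1-sh2 against scrambled and Colo800 against A375, from limma over 6 libraries. Orange marks an adjusted p under 0.05. PMAIP1 at -1.58 and BMF at 1.03 are marked for ETV1-sh2, none for ETV1-sh1, and BCL2A1 at 3.53 lies farthest to the right between the lines.

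Within a line each hairpin library faces 1 scrambled library, so there is no test and differences of at least 2-fold on log2(FPKM + 1) were counted. There were 8 among 40. In Colo800 with ETV1-sh2, BMF (1.02) and BIK (1.74) were higher and BCL2A1 (-2.36) and PMAIP1 (-1.35) lower, 2 genes each way, against 5.18% and 6.38% of all genes. In A375 with ETV1-sh2, BMF (1.04) was higher and PMAIP1 (-1.80) lower, against 6.93% and 8.29% of all genes. In Colo800 with ETV1-sh1, BCL2L11 (-1.82) was the 1 gene lower and 0 were higher, against 3.96% and 2.54% of all genes. In A375 with ETV1-sh1, BCL2A1 (1.39) was the 1 gene higher and 0 were lower, against 2.77% and 3.89% of all genes. With a pseudocount of 5 in place of 1, which narrows the differences of all genes, 4 of the 40 differences reached 2-fold. The share of all genes was not counted at that setting. Direction was the same in both lines for 8 of the 10 genes with ETV1-sh2 and for 7 with ETV1-sh1, against 76.1% and 66.6% of all genes.

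**Figure D4:**
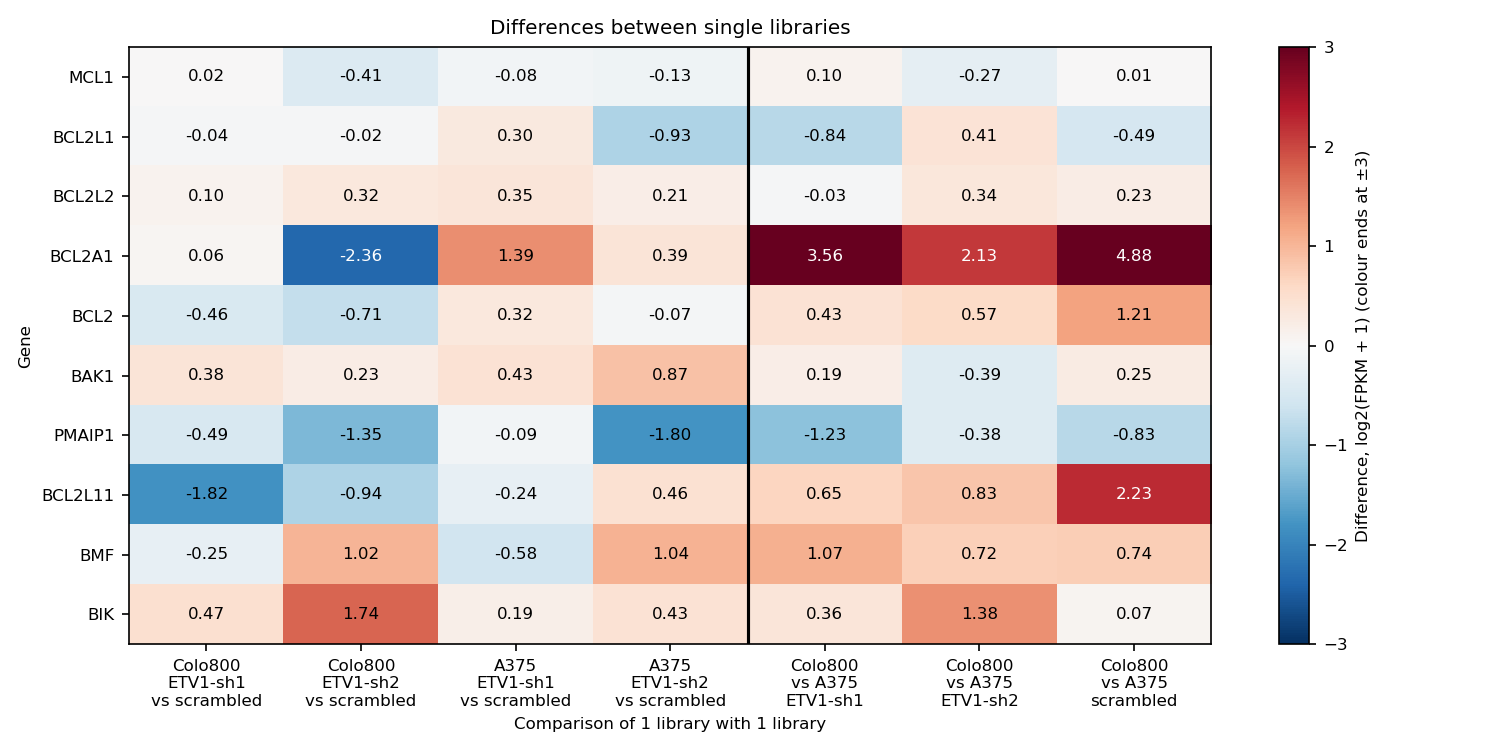
Difference in log2(FPKM + 1) between 2 single libraries, as colour and printed number, for each gene (rows) and comparison (columns). The vertical line separates hairpin against scrambled within a line (left) from Colo800 against A375 under 1 hairpin (right), and colours end at 3 in each direction. PMAIP1 is below -1 and BMF above 1 with ETV1-sh2 in both lines, and BCL2A1 is above 2 in all 3 Colo800 columns on the right.

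Colo800 differed from A375 in 5 of the 10 genes over the 3 hairpins, 4 higher and 1 lower, against 31.8% and 25.3% of all genes, 57.1% together, so the count is close to the background. BCL2A1 averaged 34.8 ± 22.9 FPKM in Colo800 and 1.67 ± 1.39 FPKM in A375 (SD over 3 libraries with different hairpins), a fitted difference of 3.53 (SE 0.47, adjusted p = 0.00148 with limma). BCL2L11 averaged 18.6 ± 11.8 FPKM in Colo800 and 6.45 ± 1.88 FPKM in A375, a difference of 1.24 (SE 0.32, adjusted p = 0.0164), and BMF 7.54 ± 4.27 FPKM in Colo800 and 3.91 ± 2.86 FPKM in A375, a difference of 0.85 (SE 0.17, adjusted p = 0.00680). BMF was higher in Colo800 under each of the 3 hairpins, although its values overlap between lines when hairpins are mixed. BCL2 was higher by 0.74 (SE 0.24, adjusted p = 0.0365), and PMAIP1 was lower, with 14.6 ± 6.76 FPKM in Colo800 and 28.4 ± 15.7 FPKM in A375 (-0.81, SE 0.19, adjusted p = 0.0128). Under single hairpins, 2-fold differences were 2 higher (BCL2A1, BMF) and 1 lower (PMAIP1) with ETV1-sh1, against 15.9% and 11.0% of all genes. With ETV1-sh2 there were 2 higher (BCL2A1, BIK) and 0 lower, against 16.2% and 13.4% of all genes, and with the scrambled hairpin 3 higher (BCL2A1, BCL2L11, BCL2) and 0 lower, against 17.2% and 13.4%. MCL1 (-0.05), BCL2L1 (-0.31), BCL2L2 (0.18), BAK1 (0.01) and BIK (0.60) did not pass. BAK1 turned to -0.07 with equal library medians and to -0.16 with libraries rescaled to the same FPKM sum.

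The BCL2 call was lost with a pseudocount of 5 (adjusted p = 0.0617), with equal library medians (0.0538), and without A375 ETV1-sh1 (0.0655), A375 scrambled (0.223), Colo800 ETV1-sh1 (0.0679) or Colo800 scrambled (0.236). The PMAIP1 call was lost without A375 ETV1-sh1 (adjusted p = 0.0644) or Colo800 ETV1-sh1 (0.0619), and the BCL2L11 call without the filter (0.0660). MITF had 91.5 FPKM with ETV1-sh1 and 38.4 FPKM with ETV1-sh2 in Colo800, against 116 FPKM with the scrambled hairpin, and 8.61, 10.5 and 12.6 FPKM in the same A375 libraries. It was higher in Colo800 by 2.72 (SE 0.30, adjusted p = 0.000747), and its lowest Colo800 value, like that of BCL2A1, was with ETV1-sh2. In A375 both ETV1 hairpin libraries were below the scrambled library for MITF but above it for BCL2A1. Over both lines the MITF difference with ETV1-sh2 was -0.91 and did not pass (adjusted p = 0.130 with limma). Melanocyte markers summed to 846 to 1297 FPKM in Colo800 and 402 to 688 FPKM in A375, all 7 averaging at least 1 FPKM in Colo800 and 3 in A375. The part of this marker difference in the line differences was not tested. BCL2A1 is also a gene of white blood cells. The summed level of 5 leukocyte markers was 0.461 to 1.24 FPKM in Colo800 and 12.3 to 21.1 FPKM in A375, with 0 of the 5 averaging at least 1 FPKM in Colo800 and 1, LYZ, in A375. LYZ had 0.514 FPKM with ETV1-sh1 and 1.02 FPKM with ETV1-sh2 in Colo800, against 0.167 FPKM with the scrambled hairpin, and 19.8 and 21.0 FPKM with ETV1-sh1 and ETV1-sh2 in A375, against 12.2 FPKM with the scrambled hairpin. In A375 LYZ was thus higher with both ETV1 hairpins, as BCL2A1 was. PTPRC was at most 0.121 FPKM in any library. The part of these markers in the BCL2A1 values was not tested.

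Promoter windows (RefSeq, GRCh38.p14, 250 bases before to 50 after the start of a gene) were available for 7 of the 10 genes. BCL2L1 and BMF had 2 windows each. They were searched on both strands for 4 short words, kept from a wider search after its hits were known: the ETS word CCGGAAGT, the MITF M-box word TCATGTG, the E-box word CACGTG, and the forkhead word TGTTTAC. Stretches holding a word are shown because ETV1 is an ETS factor, MITF moved with BCL2A1 between the lines, and FOXO factors are known regulators of BCL2L11. Capitals mark the word.
BCL2L1: tgccgcggcaCCGGAAGTgactgagctt
BCL2A1: ccatgtatcaTCATGTGtcataactca
BCL2L11: agttactccgGTAAACAcgccagggac
The BCL2L1 stretch is chr20:31723937-31723964 (minus strand), and 4.14% of 35116 promoter windows hold its ETS word. The word was in 1 of the 2 BCL2L1 windows, beginning at base 10 after the start used for that window. The BCL2A1 stretch is chr15:79971206-79971232 (minus strand), its M-box word beginning 26 bases before the start, a word in 2.92% of windows. The BCL2L11 stretch is chr2:111120681-111120707 (plus strand), with the forkhead word as its reverse complement, beginning 223 bases before the start, a word in 3.42% of windows. The E-box word was in 0 windows of the 7 genes and in 7.26% of all windows. A match is only a run of letters, and no binding was measured.

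Other genes of the death pathway were read from lists written with earlier results known. Of 13 further BCL2 family genes, 9 were tested, and with ETV1-sh2 and with ETV1-sh1 0 passed with limma. In those fits 2 and 3 of them had an unadjusted p under 0.05, against 3965 and 2095 of the 11129 genes. Between the lines 5 were higher and 2 lower in Colo800, against 31.8% and 25.3% of all genes, 57.1% together. BAX, the other main effector, had 81.1, 69.6 and 71.6 FPKM with ETV1-sh1, ETV1-sh2 and the scrambled hairpin in Colo800, and 487, 485 and 505 FPKM in the same A375 libraries, a difference of -2.72 (SE 0.13, adjusted p = 6.87e-05). BBC3, which encodes the BH3-only protein PUMA, was lower by 2.31 (adjusted p = 0.000543), while BCL2L13 (1.11, adjusted p = 0.000812) and BID (1.16, adjusted p = 0.00372) were higher. The effectors thus differed, BAX being lower in Colo800 and BAK1 not passing.

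Of 13 apoptosome and caspase genes, all tested, 1 was higher and 4 lower with ETV1-sh2, against 7.73% and 9.00% of all genes. CASP6, an executioner caspase, had 27.7 FPKM with ETV1-sh2 in Colo800, against 9.61 FPKM with the scrambled hairpin, and 57.3 FPKM with ETV1-sh2 in A375, against 20.6 FPKM with the scrambled hairpin (1.43, SE 0.17, adjusted p = 0.00936). APAF1, the apoptosome scaffold (-0.93, adjusted p = 0.0266), and HTRA2, a mitochondrial protease (-0.73, adjusted p = 0.0353), fell. With ETV1-sh1 0 of the 13 passed with limma, 2 having an unadjusted p under 0.05, against 2095 of the 11129 genes. Between the lines 3 were higher and 3 lower in Colo800, against 31.8% and 25.3% of all genes, led by CYCS (cytochrome c), higher by 1.66 (adjusted p = 0.000261).

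Among 5 tested genes of inhibitor of apoptosis proteins, 0 were higher and 2 lower with ETV1-sh2, against 7.73% and 9.00% of all genes. BIRC2, a ubiquitin ligase of the TNF receptor pathway, had 9.06 FPKM with ETV1-sh2 in Colo800, against 20.9 FPKM with the scrambled hairpin, and 11.5 FPKM with ETV1-sh2 in A375, against 31.0 FPKM with the scrambled hairpin (-1.24, SE 0.19, adjusted p = 0.0152). BIRC5 (survivin, also a mitotic protein) fell to 23.2 FPKM with ETV1-sh2 in Colo800, against 49.4 FPKM with the scrambled hairpin, and to 1.01 FPKM with ETV1-sh2 in A375, against 19.5 FPKM with the scrambled hairpin (adjusted p = 0.0346). Among 4 genes for turnover of the MCL1 protein, 0 were higher and 1 lower, against the same shares: USP9X, a deubiquitinase of MCL1, fell by 1.17 with ETV1-sh2 (SE 0.20, adjusted p = 0.0183), while the MCL1 transcript did not pass. Between the lines 1 inhibitor gene was higher and 1 lower in Colo800, and 0 turnover genes were higher and 2 lower, against 31.8% and 25.3% of all genes. Of the turnover genes, FBXW7 (-0.73) and BTRC (-0.75), both ubiquitin ligase subunits, were lower in Colo800 (adjusted p = 0.00833 and 0.0104).

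Of 9 regulators of these genes, 0 were higher and 2 lower with ETV1-sh2, against 7.73% and 9.00% of all genes: E2F1, a cell-cycle factor, by -1.24 (adjusted p = 0.0166) and DDIT3, a stress factor, by -0.76 (adjusted p = 0.0449). Between the lines 6 were higher and 1 lower in Colo800, against 31.8% and 25.3% of all genes, among them FOXO1 (2.04, adjusted p = 0.000212) and ATF4 (1.67, adjusted p = 0.000276). Of 12 genes of ERK output, 1 was higher and 3 lower with ETV1-sh2, against 7.73% and 9.00% of all genes. DUSP4, an ERK phosphatase, had 89.6 FPKM with ETV1-sh2 in Colo800, against 216 FPKM with the scrambled hairpin, and 45.8 FPKM with ETV1-sh2 in A375, against 141 FPKM with the scrambled hairpin (-1.43, SE 0.17, adjusted p = 0.00948). CCND1 (-1.86, adjusted p = 0.0164) and SPRY4 (-1.48, adjusted p = 0.0265) fell, and EGR1, an immediate early gene, rose by 1.69 (adjusted p = 0.0339). Between the lines 5 ERK output genes were higher and 1 lower in Colo800, against 31.8% and 25.3% of all genes. With ETV1-sh1 the only call in these 4 lists with limma was ETV5, an ETS factor, lower by 1.54 (adjusted p = 0.0294). An unadjusted p under 0.05 was found for 0 inhibitor, 0 turnover, 1 regulator and 6 ERK output genes, against 2095 of the 11129 genes. These ETV1-sh2 changes moved with the PMAIP1 and BMF differences in the same libraries, and their part in them was not tested. List medians with ETV1-sh2 were -0.03 for the further BCL2 family, 0.02 for apoptosome and caspases, -1.24 for inhibitors of apoptosis, -0.14 for MCL1 turnover, -0.07 for regulators and -0.52 for ERK output, against 0.05 over all genes.

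For the 4 widest-ranging members, the 3 genes with the closest log2(FPKM + 1) profile over the 6 libraries, centred on the mean, were taken by their root mean square difference. They were MID1 (0.10), KCTD10 (0.14) and FGD4 (0.15) for PMAIP1, and JPH1 (0.16), ANKFN1 (0.16) and MOSPD3 (0.17) for BMF. They were BEND5 (0.18), SOCS3 (0.23) and ALDH1A3 (0.23) for BCL2L11, and ZNF704 (0.35), ADAMTS9 (0.43) and ADCY1 (0.44) for BCL2A1. MID1 had 7.16 FPKM with ETV1-sh2 in Colo800, against 17.5 FPKM with the scrambled hairpin, and 7.81 FPKM with ETV1-sh2 in A375, against 30.0 FPKM with the scrambled hairpin. The closest profiles lay nearer to PMAIP1 and BMF than to BCL2A1, whose range over the libraries was 4.95.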

How the data were processed

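RNA sequencing of 6 libraries was analysed, 1 per cell line and hairpin. The authors deposited 1 table of FPKM values, made with STAR 2.4, Cufflinks 2.2.1 and Cuffnorm on hg19, per the submitters' processing notes. The annotation, the strand setting, the scaling method and any pooling of duplicate infections are not stated there, and reads of overlapping or antisense genes cannot be assigned with certainty. No count is available, so count tests were not used and absolute depth is unknown. Genes with a mean of at least 1 FPKM (11129 of 17468) were tested on log2(FPKM + 1), two-sided, with limma 3.58.1 in R 4.3.3 (lmFit, eBayes with a variance trend, Benjamini-Hochberg over all genes fitted, threshold 0.05). The fits of each hairpin and of the lines used all 6 libraries and terms for the line and for each hairpin, leaving 2 residual degrees of freedom. The pooled fit had 3 and the line-by-knockdown fit 2. A pseudocount of 1 understates changes of low genes. Whether the libraries are independent cultures beyond line and hairpin is not given, so each p reflects only the scatter of these libraries. In the fits of each hairpin and of the lines, this scatter is how far the lines disagree on the hairpin differences. For each gene it is combined with the trend over all genes, which counts as 4.32 degrees of freedom beside the 2 residual ones. The scatter may be partly technical, and it does not measure replicates of a hairpin within a line. In the pooled and line-by-knockdown fits it includes the gap between ETV1-sh1 and ETV1-sh2. Named genes were the 10 members, and in each other list at most the 4 genes passing with the largest moderated statistic with ETV1-sh2 or between lines. Some genes that this rule or the marker lists take in are not reported here by name. The members, lists and motif words were chosen with earlier results of these data known. The fit was tested on simulated data. Alternatives were pseudocounts of 0.1 and 5, filters of none and 5 FPKM, 2 other scalings, no variance trend, fewer libraries and no line block. Coding and promoter stretches come from GENCODE 29 and RefSeq on GRCh38, not the build of the files.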

Additional observations from a re-analysis of the deposited data

Results flagged for a closer look

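For 5 of the 20 pairs of gene and hairpin, the Colo800 and A375 libraries moved in opposite directions against their scrambled library. Direction was the same in both lines for 8 of the 10 genes with ETV1-sh2, against 76.1% of all genes. With ETV1-sh1 it was the same for 7 of the 10, against 66.6% of all genes, so these counts are close to the background. Each line has 1 library per hairpin, so the differences below were not tested per hairpin. The limma test over both hairpins passed for 0 of the 10 genes and for 0 of all 11129 genes. It counts the gap between ETV1-sh1 and ETV1-sh2 as spread, so its count of 0 is not evidence that the lines are alike. With ETV1-sh2, BCL2A1 was -2.36 in Colo800 and 0.39 in A375 on log2(FPKM + 1), a Colo800 minus A375 difference of -2.75. With ETV1-sh2, BCL2L11 was -0.94 in Colo800 and 0.46 in A375, a difference of -1.40. With ETV1-sh1, BCL2 was -0.46 in Colo800 and 0.32 in A375, a difference of -0.78, at levels under 3 FPKM. With ETV1-sh1, BCL2L1 was -0.04 in Colo800 and 0.30 in A375, a difference of -0.34. With ETV1-sh1, MCL1 was 0.02 in Colo800 and -0.08 in A375, a difference of 0.10.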

How the results depend on the processing

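The line was a block in these fits, which sets each hairpin library against the scrambled library of its line. No paired analysis was possible by replicate number because the labels give none. With ETV1-sh2 against scrambled, 2 of the 10 genes passed, and 1862 of all 11129 genes. The count of 2 became 0 without a filter on low values and 0 without the line block. It was 1 when the ETV1-sh1 libraries were kept out of the fit (PMAIP1 passed, BMF did not, adjusted p = 0.0506), with 890 of all genes. It was also 1 without A375 ETV1-sh1 or Colo800 ETV1-sh1, where 883 and 861 of all genes passed. Leaving out any other library leaves 1 in a compared group, and the count changed there too. With ETV1-sh2 against ETV1-sh1 the count of 2 became 0 without the filter and 0 without the line block. It also changed when 1 library was left out, which cannot be read as particular to these genes. Between the lines the count of 5, where 6353 of all 11129 genes passed in the full fit, ranged from 3 to 6. For ETV1-sh2 against scrambled, 0 genes of the whole series passed without the filter and 0 without the line block. The count of 8 differences of at least 2-fold within a line was 4 with a pseudocount of 5, which narrows the differences of all genes. The counts of 0 for ETV1-sh1, for the pooled hairpins and for the difference between lines were 0 under every alternative that could be fitted. For ETV1-sh1, 254 of all 11129 genes passed in the full fit and 0 of 16132 without the filter. For the pooled hairpins and for the difference between lines, 0 of all 11129 genes passed in the full fit. Those counts of 0 are thus not particular to the 10 genes. The difference between lines could not be fitted without a scrambled library, and BCL2 and BIK were not fitted with the filter of 5 FPKM. Values that changed sign, none of them passing in the full fit, were BAK1 between the lines (-0.074 with equal medians, -0.156 with equal sums) and BCL2 with ETV1-sh1 (0.016 with a pseudocount of 0.1). When 1 library was left out, sign changes occurred with ETV1-sh2 for BCL2L1 (-1.01 to 0.061), BCL2A1 (-2.03 to 0.064) and BCL2L11 (-0.98 to 0.51). With ETV1-sh1 they occurred for BCL2 (-0.43 to 0.28), BCL2L1 (-0.27 to 0.53), MCL1 (-0.14 to 0.090), BCL2A1 (-0.29 to 1.74), PMAIP1 (-0.60 to 0.026) and BIK (-0.070 to 0.73). With ETV1-sh2 against ETV1-sh1 they occurred for BAK1 (-0.16 to 0.46) and BCL2L2 (-0.12 to 0.20), and between the lines for MCL1 (-0.13 to 0.054) and BAK1 (-0.10 to 0.22). In all, of the values of single genes under alternatives, 496 kept direction and side of the threshold, 29 lost their call, 11 gained one and 26 changed sign. Most of these values are of genes that did not pass in the full fit and so had no call to lose. The genes passing there were 2 with ETV1-sh2, 0 with ETV1-sh1, 2 with ETV1-sh2 against ETV1-sh1 and 5 between the lines. The cause was not tested. Fits without a library have 1 residual degree of freedom, and 2 for the pooled hairpins. With 1 library per line and hairpin and no counts, small differences of genes near 1 FPKM, such as BCL2 and BIK, are the least certain here.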
